A study of Mus musculus with 27 samples.

Results

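The 9 genes described here build the junctions between liver cells and were taken by symbol from a table of 21823 genes, across the lobule and through pregnancy: the cadherins Cdh1 and Cdh2, the connexins Gjb1 and Gjb2, the claudins Cldn1, Cldn2 and Cldn3, and Ocln and Tjp1. All 9 were found, and all 9 passed the filter on low values, under which 12952 genes were tested. RNA came from lobular zones cut out of frozen liver sections by laser microdissection. The livers were those of female C57BL/6 mice (C57BL/6N in the study's methods) of WT genotype, either non-pregnant (NP) or pregnant at day 8 (dpc8) or day 16 (dpc16) post coitum, young adults by the study's methods, with no further allele or agent in any group. Each of the 3 stages was sampled in zone 1, zone 2 and zone 3, by convention the surroundings of the portal vein, the middle of the lobule and the surroundings of the central vein, with 3 libraries for each of the 9 groups and 27 in all. Each zone was collected as 2 mm2 of tissue, so a library holds the RNA of every cell type in that area. The labels number the libraries of a group but do not tie a number to a mouse, so the p-values measure the spread between these libraries, which may be in part technical.

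Cells of an epithelium are held together by adherens junctions, in which cadherins of neighbouring cells bind each other in the presence of calcium. Tight junctions, built of claudins and occludin on a scaffold that includes ZO-1, the product of Tjp1, seal the bile canaliculus from the blood side and set which ions and how much water pass between the cells. Gap junctions are channels of connexins that join the cytoplasm of neighbouring hepatocytes and pass ions and small messengers, and the liver uses mainly connexin 32 (Gjb1) with connexin 26 (Gjb2).

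The values are FPKM, which divides the fragments of a gene by its transcript length and by the depth of its library, so levels can be set side by side between genes. The files give no read counts, but low values lay on whole steps in 88.6% to 95.7% of cases, and by the size of these steps the libraries held an estimated 7.48 to 32.8 M (mega) mapped reads. One read on a transcript of 1 kb was worth 0.0305 to 0.134 FPKM. Hepatocyte markers were high in all 27 libraries, with a summed FPKM of at least 30680 for Alb, Apoa1, Ttr, Cps1 and Hnf4a. Mean sums were 68130, 63230 and 34870 in zones 1, 2 and 3 of NP, and 188900, 145800 and 117300 at dpc16. The part of this shift in the junction genes was not tested. Zone markers followed the zone labels: the periportal sum was 1391 to 3300 FPKM in zone 1 and 7.05 to 74.8 in zone 3, and the pericentral sum was 111 to 354 in zone 1 and 6305 to 17450 in zone 3. A set of 6 libraries stood apart. Although the mice were labelled female, the summed FPKM of 4 Y-linked genes was 7.92 to 23.2 in these 6, against 0 to 2.97 in the other 21, and their connective tissue and smooth muscle markers summed to 982 to 4627 FPKM, against 84.7 to 575. The cut was a sum over 5 FPKM, and some of the other 21 held lower Y-linked values. The 6 are called the libraries with Y-linked FPKM below. They were replicate 1 of zone 1 in both NP and dpc8, replicate 2 of zone 3 in NP and of zone 2 at dpc8, and replicate 3 of zones 2 and 3 at dpc16. The summed hepatocyte markers had a median of 36090 FPKM in the 6, against 65090 in the other 21. Within its group of 3, each of the 6 had the highest Cdh2 and the lowest Gjb1, Gjb2 and Cldn3 values, so results whose call or size changed most without them are given both ways.

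The promoter stretches of 2 genes are shown here because Cldn2 had the widest gradient towards the central vein among the 9 genes and Gjb2 had the largest fitted rise at dpc16. Each is the 250 bases before a transcript start on GRCm38.p6, from RefSeq, which holds promoters for 7 of the 9 genes. Cldn2 lies on chromosome X (139800828 to 139811386, plus strand) and Gjb2 on chromosome 14 (57098600 to 57104702, minus strand), both by GENCODE vM21. The stretches run 5′ to 3′ on the strand of the gene, chrX:139800558-139800807 for Cldn2 and chr14:57104703-57104952 for Gjb2, with capitals marking a TATA box (TATAAA) in the first and GC boxes (GGGCGG or, on the opposite strand, CCGCCC) in the second.
Cldn2: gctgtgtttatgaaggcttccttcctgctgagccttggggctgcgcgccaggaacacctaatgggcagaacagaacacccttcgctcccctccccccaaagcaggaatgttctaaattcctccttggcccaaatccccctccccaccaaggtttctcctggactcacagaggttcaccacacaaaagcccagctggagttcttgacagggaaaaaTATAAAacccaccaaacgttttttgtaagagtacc
Gjb2: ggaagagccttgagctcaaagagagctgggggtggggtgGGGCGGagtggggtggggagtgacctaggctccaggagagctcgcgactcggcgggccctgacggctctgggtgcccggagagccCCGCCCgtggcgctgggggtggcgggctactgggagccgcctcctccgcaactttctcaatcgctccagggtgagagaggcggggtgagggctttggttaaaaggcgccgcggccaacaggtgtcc
The TATA box of Cldn2 begins 35 bases before the transcript start, and the GC boxes of Gjb2 begin 211 and 126 bases before it. On either strand, a TATA box was found in 12.4% and a GC box in 32.7% of 32851 promoter stretches of this length. The Cldn2 stretch was 52.0% G and C and the Gjb2 stretch 69.2%, against a median of 52.4% over all of these promoters. An HNF4 motif (CAAAGTCCA, in 0.384% of all stretches) and a TCF/LEF motif (CTTTGAT, in 3.21%) had no match in the stretches of these 7 genes, which says only that these letters are not in this window.

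Of the 9 genes, the connexins had the highest levels. Group means of Gjb1 lay between 204 and 499 FPKM and those of Gjb2 between 125 and 332, while no group mean of the other 7 exceeded 56.0 FPKM. Cdh1 spanned the widest range, from a group mean of 0.0600 FPKM in dpc16 zone 3 to 40.1 in NP zone 1. On mm10, Gjb1 lies on chromosome X (101376378 to 101385629), Cldn1 on 16 (26356642 to 26371841), Cldn3 on 5 (134986214 to 134987472), Ocln on 13 (100496507 to 100552718) and Tjp1 on 7 (65296165 to 65527781), and none of the 9 overlaps another gene of the table. Cldn3 varied least between groups, with a highest group mean 1.58 times the lowest.

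**Figure D1:**
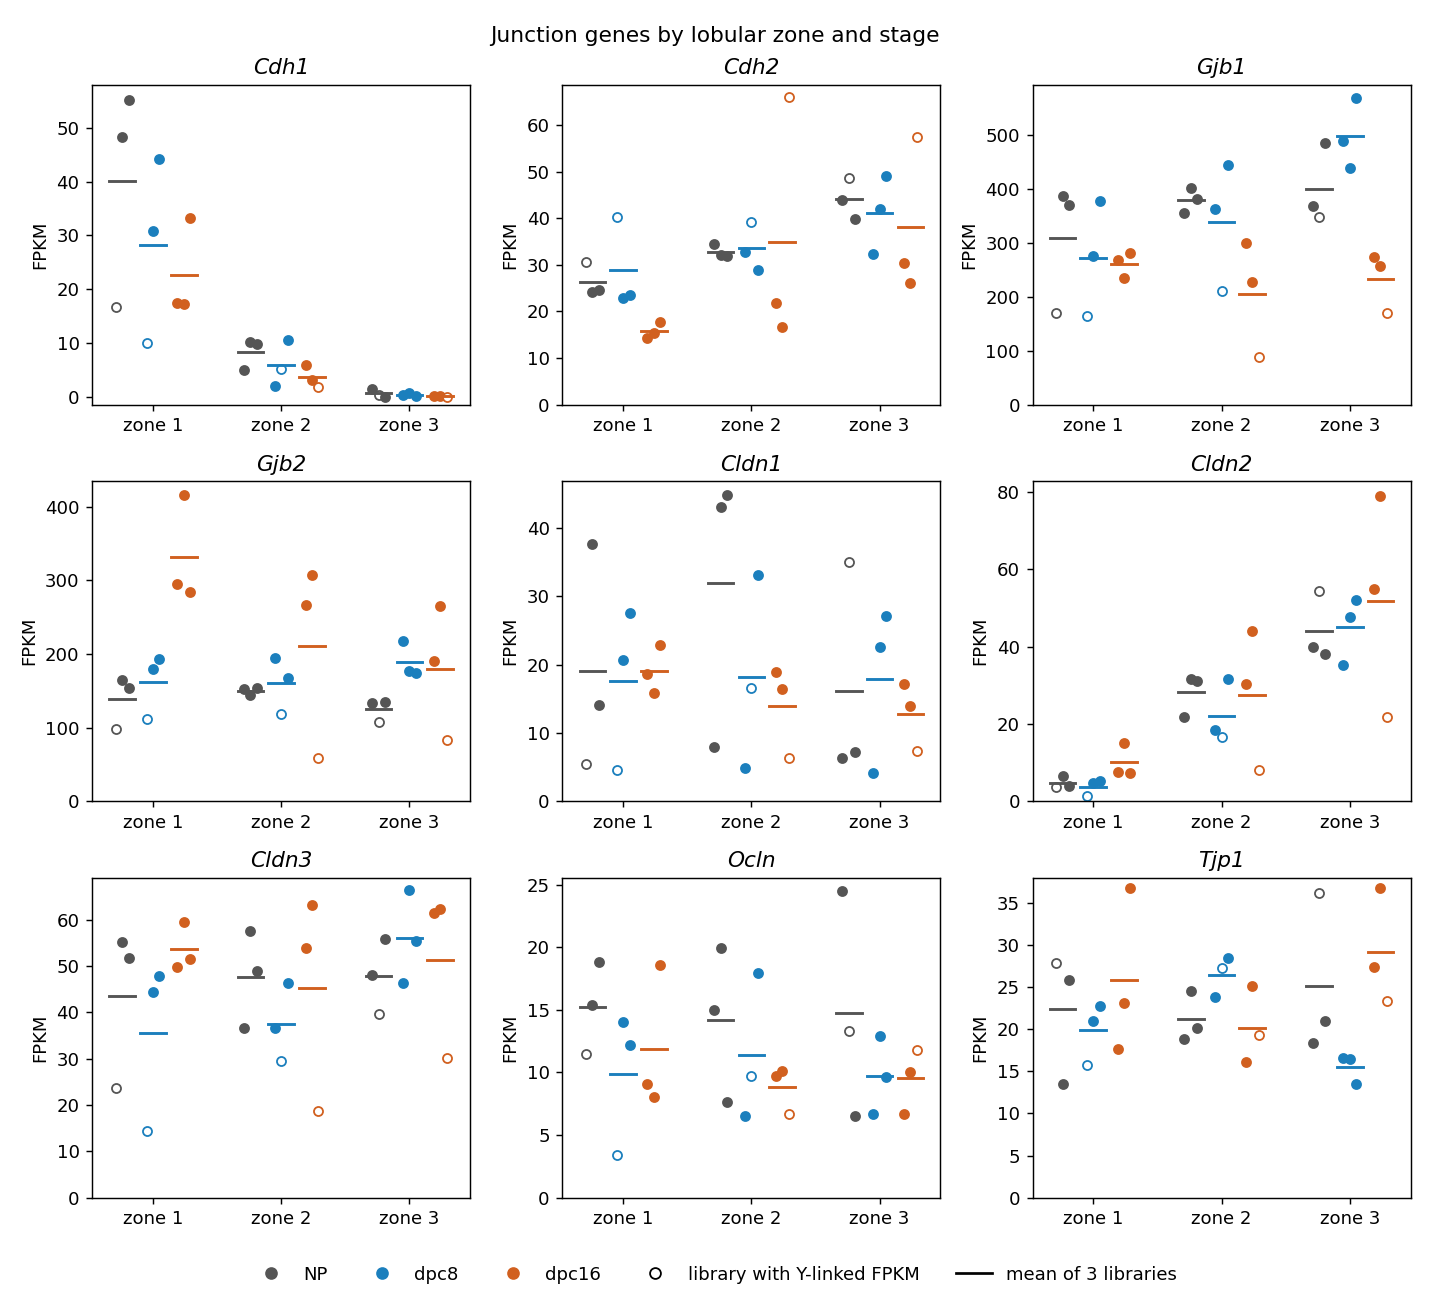
FPKM of the 9 junction genes in each of the 27 libraries, by zone on the horizontal axis and stage by colour; short lines are means of 3 libraries and open circles are the 6 libraries with Y-linked FPKM. Cdh1 falls from zone 1 to zone 3 at every stage, Cldn2 runs the other way, and the highest Gjb2 value, 417 FPKM, is from dpc16 zone 1.

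The first question was which of the junction genes differ between the portal and the central side of the lobule. Cdh1 was higher in zone 1, Cldn2 and Cdh2 were higher in zone 3, and the other 6 genes did not pass the test. Averaged over the stages, 3 of 9 genes (33.3%) passed an adjusted p of 0.05 between zone 1 and zone 3 by limma, against 5.59% of all genes tested. The median log2 fold change of the 9 genes was -0.02, and that of all genes tested was 0.04. Within single stages, 2 of 9 genes passed at each stage, Cdh1 and Cldn2, against 1.34% of all genes in NP, 1.61% at dpc8 and 1.55% at dpc16.

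Cdh1 encodes E-cadherin, the adherens junction cadherin of most epithelia; it lies on chromosome 8 (106603351 to 106670246, plus strand, mm10). In NP livers it was measured at 16.8, 48.3 and 55.3 FPKM in zone 1, at 5.04, 10.2 and 9.77 in zone 2, and at 1.47, 0.305 and 0 in zone 3. At dpc8 the values were 9.89, 30.8 and 44.2 in zone 1, then 1.91, 5.05 and 10.6 in zone 2, and 0.260, 0.674 and 0.174 in zone 3. At dpc16 they were 17.5, 17.2 and 33.3 in zone 1, then 5.88, 3.04 and 1.81 in zone 2, and 0.126, 0.0541 and 0 in zone 3. Zone 1 did not overlap zone 3 at any stage, and the lowest of the 9 zone 1 libraries, 9.89 FPKM, lay far above the highest of the 9 zone 3 libraries, 1.47. Zones 1 and 2 met only at dpc8, where the highest zone 2 library exceeded the lowest zone 1 library.

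On the log2(FPKM + 1) scale, which understates the change of genes with low values, Cdh1 was higher in zone 1 than in zone 3 by 4.63 in NP (SE 0.54, adjusted p = 8.76e-06), 4.21 at dpc8 (SE 0.54, adjusted p = 3.83e-05) and 4.42 at dpc16 (SE 0.54, adjusted p = 1.31e-05). The middle zone was separated from both sides when averaged over the stages: zone 1 exceeded zone 2 by 2.17 (SE 0.31, adjusted p = 0.000281), and zone 2 exceeded zone 3 by 2.25 (SE 0.31, adjusted p = 9.28e-05). The lowest zone 1 values of NP and dpc8 were those of the 2 zone 1 libraries with Y-linked FPKM, and without the 6 libraries the zone 1 to zone 3 difference averaged over the stages was 4.75 (adjusted p = 1.03e-08) against 4.42 with them (adjusted p = 6.89e-10).

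Markers of bile duct cells, which also carry E-cadherin, moved with zone 1. The summed FPKM of 5 cholangiocyte markers (Krt19, Krt7, Epcam, Sox9 and Spp1) was 40.2 to 159 in the 9 zone 1 libraries. In zone 2 it was 10.5 to 116 in NP, 4.02 to 67.1 at dpc8 and 2.34 to 63.7 at dpc16, and in each of these groups only the highest library reached the zone 1 range. In zone 3 it was 0.0884 to 25.0 in NP, 0.447 to 5.68 at dpc8 and 0.204 to 91.6 at dpc16. Epcam was listed at 0 in 11 of 27 libraries and Krt7 in 12. Spp1 reached 133.6 FPKM, while the highest values of Krt19, Sox9, Epcam and Krt7 were 15.0, 6.37, 6.24 and 1.97, so the largest sums were mostly Spp1. The one high zone 3 sum, 91.6 FPKM, was that of dpc16 zone 3 replicate 3, a library with Y-linked FPKM in which Cdh1 was listed at 0. The part of bile duct cells in the Cdh1 gradient was not tested. In such bulk samples, fewer cells of a type and less RNA per cell cannot be told apart, for this gene and those that follow.

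Cdh2, which encodes N-cadherin, the second classical cadherin of hepatocytes, lies on chromosome 18 and ran the opposite way with a much shallower slope. In NP livers it was measured at 30.5, 24.1 and 24.7 FPKM in zone 1, at 34.5, 32.1 and 32.0 in zone 2, and at 43.9, 48.6 and 39.9 in zone 3. The 3 NP zones therefore did not overlap, and the mean was 1.67 times higher in zone 3 than in zone 1. At dpc8 the values were 40.3, 22.9 and 23.5 in zone 1, 32.7, 39.1 and 28.8 in zone 2, and 32.3, 41.9 and 49.0 in zone 3. At dpc16 they were 14.3, 15.5 and 17.7 in zone 1, 21.9, 16.6 and 66.0 in zone 2, and 30.5, 26.2 and 57.5 in zone 3. The highest value of each group that held a library with Y-linked FPKM was that library's, among them 40.3 in zone 1 of dpc8 and 66.0 and 57.5 in zones 2 and 3 of dpc16.

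Averaged over the stages, Cdh2 was lower in zone 1 than in zone 3 by a log2 fold change of -0.79 (SE 0.20, adjusted p = 0.0202). This call was lost when every library was scaled to equal FPKM sums, an alternative chosen after seeing the data (-0.86, adjusted p = 0.086) and held in each fit that left out 1 library, with an adjusted p of up to 0.0493. It missed the threshold at each single stage, with -0.72 in NP (adjusted p = 0.632), -0.52 at dpc8 (adjusted p = 0.575) and -1.14 at dpc16 (adjusted p = 0.156). Without the 6 libraries the difference passed at dpc8 (-0.78, adjusted p = 0.0333) and at dpc16 (-0.80, adjusted p = 0.0263), where 2.76% and 2.71% of all genes passed. At dpc16, where libraries of the same number deviated together, the fit with the replicate number as a block also called it (-1.14, adjusted p = 0.0392). That fit kept the libraries with Y-linked FPKM, and the highest correlation of such deviations at dpc16, 0.863, was between those of zones 2 and 3. The step from zone 1 to zone 2 was -0.47 (adjusted p = 0.678) and that from zone 2 to zone 3 was -0.33 (adjusted p = 0.676), and neither passed. The median Cdh2 level was 44.4 FPKM in the 6 libraries that stood apart and 28.8 in the other 21. The median of the smooth muscle gene Acta2 was 1020 and 1.96 FPKM in the same sets. Of the same marker list, Dcn went the other way (50.7 and 81.5) and Lum differed little (3.36 and 2.58). The part of smooth muscle and connective tissue in the Cdh2 level was not tested.

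Within a library, the share of Cdh1 in the summed FPKM of both cadherins showed the same picture without depending on the scaling between libraries. In zone 1 this share had a median of 57.4% (19.7% to 69.1%, n = 9 libraries), in zone 2 a median of 15.5% (2.66% to 26.8%), and in zone 3 a median of 0.411% (0% to 3.25%). The share did not overlap between zone 1 and zone 3. The 2 lowest zone 1 shares were those of the libraries with Y-linked FPKM in NP and at dpc8.

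**Figure D2:**
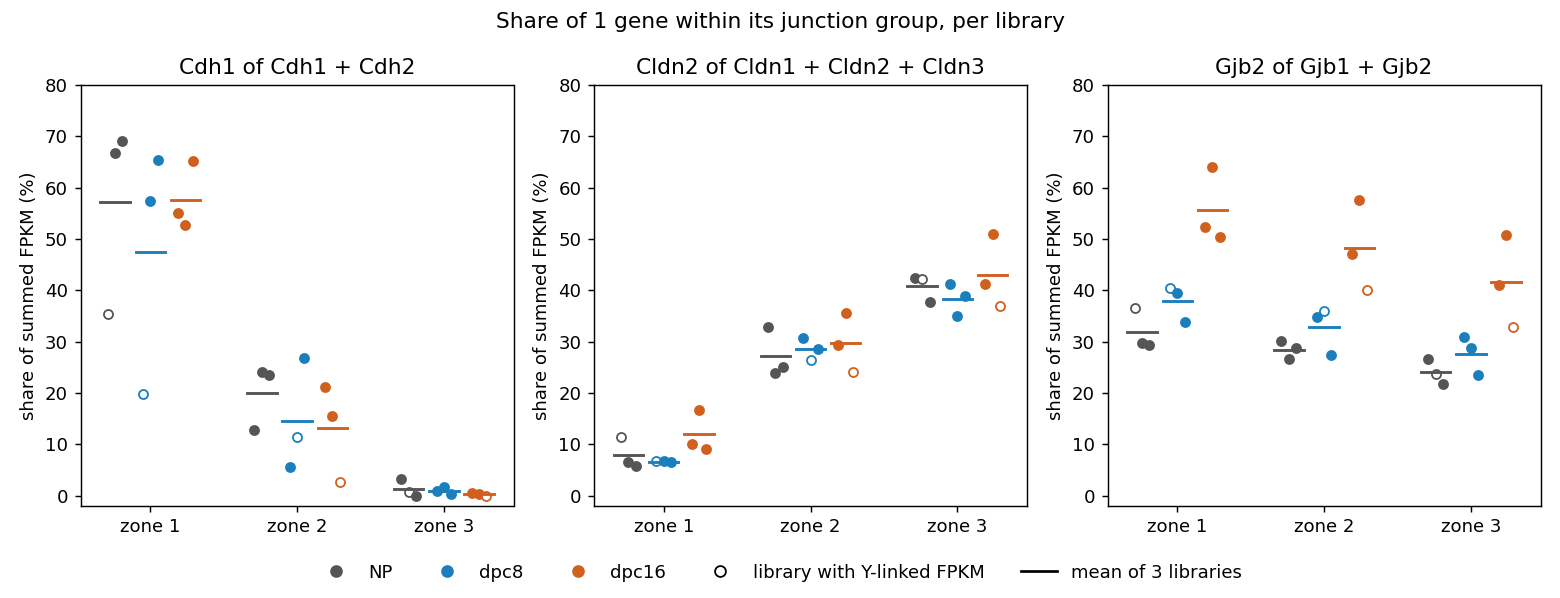
Share of 1 gene in the summed FPKM of its group (%), per library, by zone and stage; short lines are means of 3 libraries and open circles the libraries with Y-linked FPKM. The Cdh1 share falls from a median of 57.4% in zone 1 to 0.411% in zone 3, the Cldn2 share rises from 6.75% to 41.1%, and the Gjb2 share is highest at dpc16 in every zone.

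Cldn2 encodes claudin-2, which forms channels for cations and water in the tight junction. In NP livers it was measured at 3.73, 6.58 and 3.97 FPKM in zone 1, at 21.8, 31.7 and 31.2 in zone 2, and at 40.0, 54.3 and 38.1 in zone 3. At dpc8 the values were 1.35, 4.70 and 5.20 in zone 1, 18.3, 16.5 and 31.6 in zone 2, and 35.2, 47.8 and 52.2 in zone 3. At dpc16 they were 7.66, 15.1 and 7.34 in zone 1, 30.3, 44.1 and 7.99 in zone 2, and 55.1, 78.9 and 21.9 in zone 3. In NP and at dpc8 the 3 zones did not overlap; at dpc16 zone 2 overlapped both neighbours, and its lowest library and the lowest of zone 3 were those with Y-linked FPKM.

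Mean Cldn2 was 9.27 times higher in zone 3 than in zone 1 in NP, 12.02 times at dpc8 and 5.18 times at dpc16. The log2 fold change of zone 1 against zone 3 was -2.99 in NP (SE 0.50, adjusted p = 0.00109), -3.38 at dpc8 (SE 0.50, adjusted p = 0.000232) and -2.15 at dpc16 (SE 0.50, adjusted p = 0.0226). The difference at dpc16 was less secure, since it missed the threshold in 4 of the 6 fits that left out 1 library of these groups (adjusted p from 0.121 to 0.179: without replicate 1 or 3 of zone 1, or replicate 1 or 2 of zone 3). Without the 6 libraries with Y-linked FPKM it was -2.67 (adjusted p = 5.96e-05). Averaged over the stages, the step from zone 1 to zone 2 passed for Cldn2 (log2 fold change of zone 1 against zone 2 -1.95, SE 0.29, adjusted p = 0.00040) and Cdh1, beside 0.919% of all genes. The step from zone 2 to zone 3, which passed for 1.88% of all genes, passed for Cdh1 but missed the threshold for Cldn2 (-0.89, SE 0.29, adjusted p = 0.173); it passed with the replicate block (adjusted p = 0.00552).

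The weight of Cldn2 among the 3 measured claudins also differed by zone. Its share of the summed FPKM of Cldn1, Cldn2 and Cldn3 had a median of 6.75% in zone 1 (5.70% to 16.7%, n = 9), 28.5% in zone 2 (23.9% to 35.6%) and 41.1% in zone 3 (34.9% to 50.9%). Zone 1 did not overlap the other zones in this share. The only overlap was between zones 2 and 3.

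The remaining 6 genes did not pass the test between zone 1 and zone 3, at any stage or averaged. Gjb1 differed, zone 1 against zone 3, by a log2 fold change of -0.40 averaged over the stages (95% confidence interval -0.87 to 0.07, adjusted p = 0.438), and Gjb2 differed by 0.29 (-0.25 to 0.83, adjusted p = 0.70). The averages joined stages with unlike values. For Gjb1 the difference was -0.94 at dpc8 (-1.76 to -0.13, adjusted p = 0.317), where zone 1 (164 to 377 FPKM) did not overlap zone 3 (438 to 569), and 0.19 at dpc16. For Gjb2 it was 1.01 at dpc16 (0.07 to 1.96, adjusted p = 0.546), where zone 1 (284 to 417 FPKM) did not overlap zone 3 (82.7 to 265), and -0.26 at dpc8. The zone 3 value of 82.7 was that of a library with Y-linked FPKM, and without the 6 libraries the Gjb2 difference at dpc16 was 0.54 (SE 0.18, adjusted p = 0.183) and the Gjb1 difference at dpc8 -0.62 (SE 0.18, adjusted p = 0.0926). Cldn3, an abundant claudin of hepatocytes, differed by -0.29 (-0.81 to 0.23), and Cldn1 by 0.29 (-0.72 to 1.29). Ocln, the gene of occludin, differed by 0.10 (-0.48 to 0.67) and Tjp1, the gene of the scaffold protein ZO-1, by -0.02 (-0.37 to 0.34). None of the 6 passed without the 6 libraries either, although the difference averaged over the stages moved to 0.88 for Cldn1 (SE 0.47, adjusted p = 0.329) and to 0.40 for Ocln (SE 0.30, adjusted p = 0.527). The interval of Tjp1 with all libraries was the narrowest and that of Cldn1 the widest of the 9 genes. Cldn3 had medians of 49.8, 46.4 and 55.3 FPKM in zones 1, 2 and 3 (14.4 to 66.4 over all 27 libraries). Ocln had 12.2, 9.72 and 10.04 FPKM (3.40 to 24.5) and Tjp1 22.8, 23.8 and 21 (13.4 to 36.8), so the zones of these 3 genes overlapped widely.

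**Figure D3:**
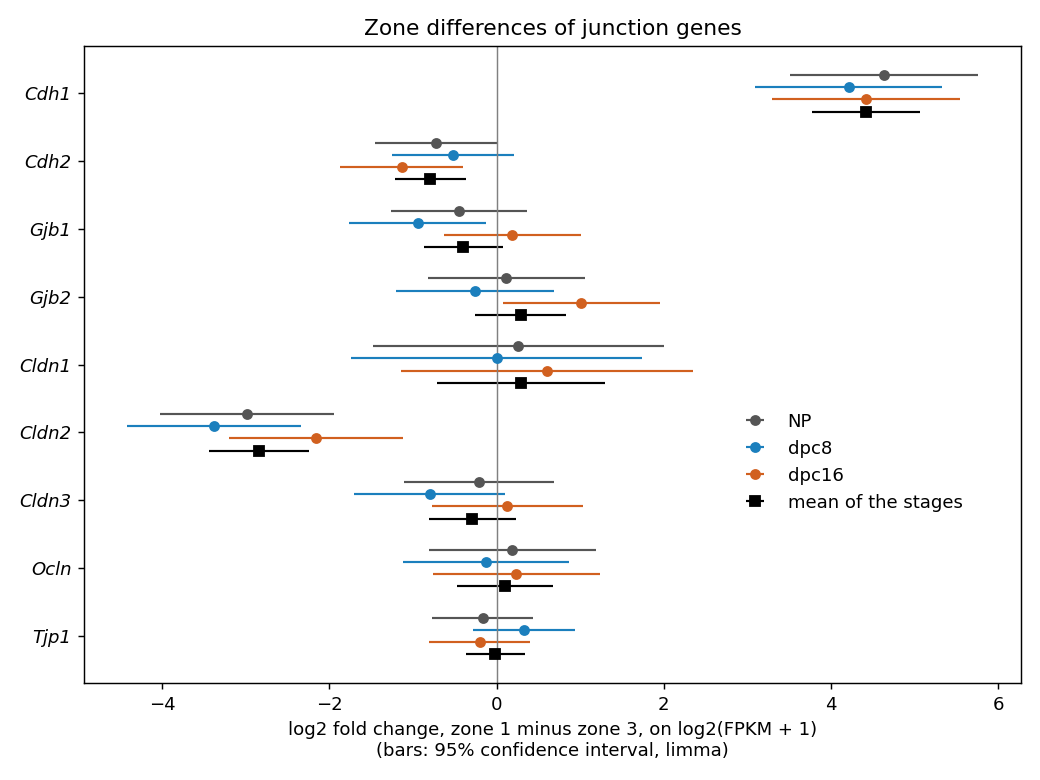
Fitted log2 fold change of zone 1 minus zone 3 for the 9 junction genes, on log2(FPKM + 1), at each stage and as the mean of the stages; bars are 95% confidence intervals from limma. Cdh1 lies between 4.21 and 4.63 and Cldn2 between -3.38 and -2.15 at the single stages, Cdh2 lies at -0.79 for the mean, and the intervals of the other genes for the mean of the stages cross 0.

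The wide interval of Cldn1, which encodes claudin-1, came with a spread between libraries that ran across zones. In NP zone 1 it was measured at 5.38, 37.6 and 14.0 FPKM, in zone 2 at 7.97, 43.0 and 44.8, and in zone 3 at 6.39, 35.0 and 7.16. At dpc8 the values were 4.55, 20.6 and 27.5 in zone 1, 4.90, 16.6 and 33.2 in zone 2, and 4.13, 22.6 and 27.1 in zone 3. Replicate 1 thus had the lowest value in all 6 groups of NP and dpc8. At dpc16 all 9 values lay between 6.39 and 22.8 FPKM, and the lowest was that of a library with Y-linked FPKM, zone 2 replicate 3.

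The second question was which of these genes change with pregnancy. At dpc8 none of the 9 passed the test against NP by limma, in any zone or averaged over the zones, and 1 gene in 1 zone, Tjp1 in zone 3, had an unadjusted p under 0.05. Few genes of any kind passed in that comparison: 0.0309% in zone 1, 0.00772% in zone 2, 0.0154% in zone 3 and 0.108% for the mean of the zones. Gjb2 had a mean of 170 FPKM over the 9 dpc8 libraries and 138 over the 9 NP libraries (log2 fold change 0.29, 95% confidence interval -0.26 to 0.83), and Gjb1 370 and 363 (-0.02, -0.50 to 0.45). Ocln had means of 10.3 and 14.7 FPKM (-0.49, -1.06 to 0.09).

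At dpc16 again none of the 9 passed against NP in the fit on all 27 libraries with a mean for each group, although 11.8% of all genes passed for the mean of the zones, 1.37% in zone 1, 2.66% in zone 2 and 1.32% in zone 3. For the mean of the zones, 3 of the 9 had an unadjusted p under 0.05, Gjb1, Gjb2 and Cdh1, as had 23.8% of all genes. The median log2 fold change of the 9 genes was -0.19, and that of all genes -0.01. Against dpc8, none of the 9 passed either and 1, Gjb1, had an unadjusted p under 0.05, while 11.1% of all genes passed and 23.9% had such an unadjusted p.

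The connexins showed the clearest pattern by library. Gjb2 in zone 1 was measured at 98.2, 164 and 154 FPKM in NP, at 112, 180 and 193 at dpc8, and at 295, 417 and 284 at dpc16. The dpc16 values in zone 1 lay above all 6 others, and the mean was 2.39 times that of NP. In zone 2 Gjb2 was measured at 152, 145 and 154 in NP, 194, 119 and 167 at dpc8, and 266, 308 and 58.5 at dpc16. In zone 3 it was measured at 134, 108 and 135 in NP, 218, 177 and 174 at dpc8, and 191, 265 and 82.7 at dpc16. In zones 2 and 3, 2 of the 3 dpc16 libraries lay above every NP library and the remaining one, the library with Y-linked FPKM, lay below every one. In the 6 such libraries Gjb2 had a median of 103 FPKM, against 180 in the other 21.

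With all libraries the log2 fold change of Gjb2 at dpc16 against NP was 1.26 in zone 1 (SE 0.45, adjusted p = 0.232), 0.17 in zone 2 (adjusted p = 0.893), 0.37 in zone 3 (adjusted p = 0.879) and 0.60 for the mean of the zones (SE 0.26, adjusted p = 0.159). Without the 6 libraries it was 1.03 in zone 1 (SE 0.18, adjusted p = 0.00384), 0.92 in zone 2 (SE 0.18, adjusted p = 0.00663) and 0.90 for the mean (SE 0.11, adjusted p = 2.65e-05), where 2.92%, 4.45% and 16.6% of all genes passed. In zone 3 it was 0.74 without them (SE 0.20, adjusted p = 0.0533), which did not pass. A single library decided the call: with only dpc16 zone 2 replicate 3 left out, the mean was 0.85 (adjusted p = 0.00452). The fold of Gjb2 also depended on scaling. At equal FPKM sums the median of all genes at dpc16 against NP moved from -0.01 to -0.33, the split of called genes from 732 higher and 797 lower to 268 higher and 2981 lower, and the Gjb2 difference to 0.21 (adjusted p = 0.449).

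Gjb1, the other hepatocyte connexin, had fitted differences of the opposite sign. In NP it was measured at 170, 387 and 370 FPKM in zone 1, 355, 401 and 382 in zone 2, and 369, 348 and 485 in zone 3. At dpc16 the values were 268, 234 and 281 in zone 1, 299, 227 and 87.7 in zone 2, and 274, 257 and 169 in zone 3. In zones 2 and 3 every dpc16 library lay below every NP library, and in zone 1 the dpc16 values lay between the lowest NP value, that of a library with Y-linked FPKM, and the 2 higher ones. At dpc8 the values were 164, 276 and 377 in zone 1, 363, 211 and 444 in zone 2, and 489, 438 and 569 in zone 3, and overlapped those of NP in every zone.

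For the mean of the zones, Gjb1 at dpc16 differed from NP by a log2 fold change of -0.67 (SE 0.23, adjusted p = 0.0588) and from dpc8 by -0.64 (SE 0.23, adjusted p = 0.0718), both just short of the threshold. Without the 6 libraries both passed, at -0.58 (SE 0.11, adjusted p = 0.00134) and -0.61 (SE 0.11, adjusted p = 0.000909), the second beside 18.7% of all genes. Its direction held under the other scalings: it was -0.80 after quantile normalization (adjusted p = 0.00655) and -1.06 at equal FPKM sums (adjusted p = 1.67e-05). The latter scale is the shifted one given for Gjb2, on which most called genes were lower at dpc16. Leaving out dpc16 zone 2 replicate 1 or NP zone 1 replicate 1 also brought it past the threshold against NP (adjusted p = 0.0234 and 0.0191). Against dpc8 it passed without dpc16 zone 2 replicate 1, dpc8 zone 1 replicate 1 or dpc8 zone 2 replicate 2 (adjusted p = 0.0305, 0.0317 and 0.037).

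The share of Gjb2 in the summed FPKM of both connexins, which does not depend on how libraries are scaled, set dpc16 apart within each zone. In zone 1 it was 36.6%, 29.8% and 29.4% in NP, 40.5%, 39.5% and 33.8% at dpc8, and 52.4%, 64.0% and 50.3% at dpc16. In zone 2 it was 30.0%, 26.5% and 28.8% in NP, 34.9%, 36.0% and 27.4% at dpc8, and 47.1%, 57.6% and 40.0% at dpc16. In zone 3 it was 26.6%, 23.6% and 21.8% in NP, 30.8%, 28.8% and 23.4% at dpc8, and 41.1%, 50.8% and 32.8% at dpc16. Every dpc16 library lay above every NP and dpc8 library of its zone, the libraries with Y-linked FPKM included, whereas dpc8 overlapped NP in all 3 zones. At each stage the mean share also fell from zone 1 to zone 3, from 31.9% to 24.0% in NP, 37.9% to 27.7% at dpc8 and 55.6% to 41.6% at dpc16. These shares were looked at after the levels were known and are given without a test.

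**Figure D4:**
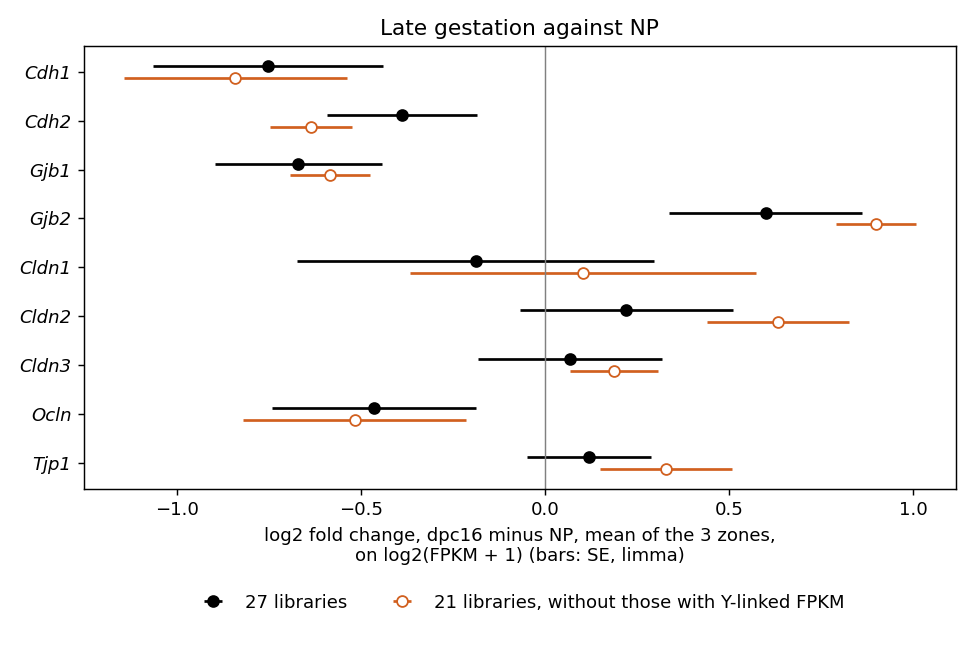
Fitted log2 fold change of dpc16 minus NP, as the mean of the 3 zones on log2(FPKM + 1), for the 9 genes with all 27 libraries and with the 21 without Y-linked FPKM; bars are SE from limma. Gjb2 moves from 0.60 to 0.90 and Cldn2 from 0.22 to 0.63 when the 6 libraries are left out, and Gjb1 stays below 0, at -0.67 and -0.58.

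The cadherins had lower fitted values at dpc16. Cdh2 in zone 1 ran from 14.3 to 17.7 FPKM at dpc16, against 24.1 to 30.5 in NP and 22.9 to 40.3 at dpc8, with no overlap. By limma, Cdh2 did not pass against NP in zone 1, with -0.70 (adjusted p = 0.484) and, without the 6 libraries, -0.60 (adjusted p = 0.112). Its mean difference from NP over the zones was -0.39 (SE 0.20, adjusted p = 0.258), which became -0.64 (SE 0.11, adjusted p = 0.000873) without the 6 libraries and -0.58 (adjusted p = 0.0135) with dpc16 zone 2 replicate 3 alone left out; in zone 2 it went from -0.17 (adjusted p = 0.853) to -0.75 (adjusted p = 0.0292) without the 6. Against dpc8 it went from -0.38 (adjusted p = 0.266) to -0.56 (adjusted p = 0.00208) without the 6 libraries and to -0.58 (adjusted p = 0.0143) without dpc16 zone 2 replicate 3. For Cdh1 the mean difference at dpc16 from NP was -0.75 (SE 0.31, adjusted p = 0.134), and -0.84 (adjusted p = 0.0699) without the 6 libraries. It passed with NP zone 1 replicate 1 left out (-0.93, adjusted p = 0.0499). It also passed at equal FPKM sums (-1.14, adjusted p = 0.00943), the shifted scale on which most called genes were lower.

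Of the tight junction genes, Cldn2 changed its call in the same way. Its mean difference at dpc16 was 0.22 from NP (SE 0.29, adjusted p = 0.725) and 0.46 from dpc8 (adjusted p = 0.369), and without the 6 libraries 0.63 (SE 0.19, adjusted p = 0.0324) and 0.65 (SE 0.19, adjusted p = 0.0252). At equal FPKM sums its difference from NP was -0.14 (adjusted p = 0.723), on a scale on which the median of all genes was -0.33. Without the 6 libraries Gjb2 too passed against dpc8, at 0.58 (SE 0.11, adjusted p = 0.00146). Cldn1, Cldn3, Ocln and Tjp1 passed neither with nor without the 6 libraries; their differences from NP with all libraries were -0.19 (adjusted p = 0.878), 0.07 (adjusted p = 0.918), -0.46 (adjusted p = 0.335) and 0.12 (adjusted p = 0.747). Without the 6 they were 0.10, 0.19, -0.52 and 0.33 (adjusted p = 0.917, 0.329, 0.285 and 0.241), so the sign for Cldn1 turned. At equal FPKM sums Ocln passed, at -0.84 (adjusted p = 0.0397), on that same shifted scale.

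Whether the change with pregnancy differed between zone 1 and zone 3 was tested as an interaction. None of the 9 genes passed by limma, none had an unadjusted p under 0.05 at either stage, and of all genes 0% passed at dpc8 and 0.054% at dpc16. With all 27 libraries the fitted differences of the change at dpc16 included Gjb2 (0.90, 95% confidence interval -0.44 to 2.23), Cldn2 (0.83, -0.64 to 2.30) and Gjb1 (0.64, -0.52 to 1.79). Each of these intervals holds both 0 and a difference of 1 on the log2 scale. All 3 values were smaller with the 6 libraries left out: Gjb2 was at 0.30 (SE 0.27), Cldn2 at 0.03 (SE 0.48) and Gjb1 at 0.13 (SE 0.27), and Cldn1 had the value farthest from 0 of the 9 genes, -1.36 (SE 1.17), none of them past the threshold, beside 0.0386% of all genes that passed.

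Other genes of the same junctions were read from lists of 51 genes: 13 of adherens junctions, 9 of gap junctions and 29 of tight junctions. After the filter, 12, 5 and 22 of them were tested. Between zone 1 and zone 3, averaged over the stages, 1 of 12 adherens genes was lower, none of 5 gap junction genes passed and 2 of 22 tight junction genes were higher in zone 1. Of the 39 genes, 4 reached the filter only through 1 side of the comparison, among them both tight junction genes that passed. Of the other 35, 1 passed (2.86%), beside the 5.59% of all genes given above. The median log2 fold changes of the lists were -0.07, 0.40 and 0.00, beside 0.04 for all genes.

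The adherens gene was Cdh13, which encodes T-cadherin, a cadherin anchored to the membrane by lipid. It was measured at 6.09, 0.436 and 1.01 FPKM in NP zone 1 and at 14.3, 11.3 and 5.03 in NP zone 3. At dpc16 the values were 0.457, 0.934 and 1.13 in zone 1 and 4.74, 4.69 and 4.83 in zone 3. Its log2 fold change of zone 1 against zone 3 was -1.81 averaged over the stages (SE 0.27, adjusted p = 7.48e-05), -1.93 in NP (adjusted p = 0.0342), -1.82 at dpc8 (adjusted p = 0.0464) and -1.66 at dpc16, which missed the threshold (adjusted p = 0.0844), and that of zone 2 against zone 3 was -1.14 (adjusted p = 0.0227). Cdh13 thus ran in the direction of Cdh2. The tight junction genes were Cldn7, a claudin of duct epithelia (1.183, SE 0.31, adjusted p = 0.0248), and Marveld3, a membrane protein of the occludin family (0.82, SE 0.20, adjusted p = 0.0131). Both were near the lower limit of the data and reached the 1 FPKM of the filter mainly in zone 1, Cldn7 in 4 zone 1 libraries and 2 others and Marveld3 in 4 and 1, so their calls are given as values only. Cldn7 was listed at 0 in all 3 libraries of zones 2 and 3 at dpc8 and dpc16, and at 0.364 to 7.54 FPKM in the 9 zone 1 libraries, where the cholangiocyte markers were also high. Without the 6 libraries, where 8.18% of all genes passed, Cdh13 (-2.10, adjusted p = 5.9e-06) and Marveld3 (0.87, adjusted p = 0.0094) passed, and Cldn7 did not (0.95, adjusted p = 0.0928). In that fit 5 of the 35 genes passed (14.3%), the other 4 beside Cdh13 being F11r, which encodes the adhesion molecule JAM-A (0.77, adjusted p = 0.000317), Cgn, the gene of cingulin (0.97, adjusted p = 0.0338), Cldnd1 (-0.55, adjusted p = 0.0109) and Pard3, the gene of a polarity scaffold (-0.41, adjusted p = 0.0199).

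At dpc16 against NP, for the mean of the zones, 1 of 12 adherens genes passed (lower), none of 5 gap junction genes, and 4 of 22 tight junction genes (1 higher, 3 lower). Without the same 4 genes, which also reached the filter only through 1 side here, 4 of 35 passed (11.4%), beside 11.8% of all genes. The medians of the lists were -0.21, -0.10 and -0.14, beside -0.01 for all genes. The adherens gene was Cdh5, the cadherin of endothelium (-0.53, SE 0.17, adjusted p = 0.0394), and Cldn5, an endothelial claudin, was also lower (-0.73, SE 0.20, adjusted p = 0.0178); summed endothelial markers ranged from 56.7 to 123.3 FPKM in NP and from 36.1 to 102 at dpc16, and the part of endothelium in both was not tested. Lsr, which encodes the angulin that marks tricellular tight junctions, was also lower (-0.86, SE 0.21, adjusted p = 0.00916), with 76.9 to 115 FPKM in NP zone 2 and 24.0 to 54.0 at dpc16, which did not overlap, and 51.4 to 143 and 52.3 to 98.2 in zone 1, which did. Cgnl1, which encodes paracingulin, was lower (-0.48, SE 0.13, adjusted p = 0.0175). Marveld3 was higher (0.84, SE 0.20, adjusted p = 0.00663), with 0.207, 1.43 and 0.802 FPKM in NP zone 1 and 4.80, 3.02 and 2.18 at dpc16. It reached 1 FPKM in 1 NP, 0 dpc8 and 4 dpc16 libraries and so passed the filter only through dpc16, and its call is given as a value only. With the 6 libraries left out, 5 of the 35 genes passed (14.3%), beside 16.6% of all genes, and Marveld3 was at 0.83 (adjusted p = 0.00751). Of those already named, Lsr (-0.87, adjusted p = 0.000459) and Cldn5 (-0.72, adjusted p = 0.0178) were among the 5, and Cdh5 (-0.39, adjusted p = 0.0507) and Cgnl1 (-0.44, adjusted p = 0.0525) were not. The others were F11r (0.75, adjusted p = 0.000268), Cldn14, the gene of claudin-14 (0.66, adjusted p = 0.0171), and Jup, the gene of plakoglobin (-0.43, adjusted p = 0.0447). At dpc8 no gene of the 3 lists passed against NP in any zone or for the mean.

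Among the 9 genes, levels across the 27 libraries ran together or apart in a few pairs, given here as a description on the log2(FPKM + 1) scale over libraries that share stages, zones and composition. Cdh2 and Gjb2 had Pearson's r = -0.85, Cdh1 and Cldn2 -0.76, Gjb2 and Cldn3 0.70, and Gjb1 and Cldn3 0.67. In each of the 6 libraries with Y-linked FPKM, Cdh2 was the highest of its group and Gjb1, Gjb2 and Cldn3 were the lowest. The part of these 6 libraries in the correlations was not tested. Of all genes tested, those most like Cdh1 were Cryl1 (r = 0.95), Tstd1 (0.92) and Uroc1 (0.92). Those most like Cldn2 were Lhpp (r = 0.92), Gulo (0.91) and Sult3a1 (0.90), of which Lhpp is one of the pericentral markers used above. Those most like Cdh2 were Cs (r = 0.95), Irs1 (0.91) and Hspb1 (0.86), all over the same 27 libraries.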

How the data were processed

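The authors depleted ribosomal RNA, aligned single-end reads to mm10 with HISAT2 2.1.0 and computed FPKM over GENCODE genes with Cuffdiff of Cufflinks 2.2.1, and the deposited FPKM values were used as they stand, with no read counts. The filter kept genes that reached an FPKM of 1 in 3 or more libraries. Limma 3.58.1 (R 4.3.3, trend and robust settings) was fitted to log2(FPKM + 1) with a mean for each of the 9 groups; tests were two-sided, adjusted by Benjamini-Hochberg over 12952 genes in each of 17 comparisons, at a threshold of 0.05. The members and lists were chosen with earlier results of these data known; the 9 genes were named throughout, and list genes where they passed with all libraries or, for 2 comparisons, without 6. Tested on simulated data with 12952 genes, the comparison of zones 1 and 3 averaged over the stages called 69 of 72 genes changed by 2 on the log2 scale, 37 of 57 changed by 1 and 10 of 12752 unchanged. At dpc16 all 9 correlations between deviations of same-numbered libraries exceeded 0.1 (0.263 to 0.863), as did 4 of 9 in NP and 5 of 9 at dpc8; the tests reported had no replicate block, and for dpc16 zones the blocked value stands beside a result whose call it changed. Alternatives were a pseudocount of 0.1, no filter, quantile normalization, array weights, only the groups compared, the replicate block, leaving out 6 libraries or any 1 library, and equal FPKM sums. Positions came from GENCODE vM21. Figures were drawn with matplotlib 3.10.9.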

Additional observations from a re-analysis of the deposited data

How the results depend on the processing

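The zone differences of Cdh1 kept their direction and stayed past the threshold under all 8 alternatives and when any 1 library was left out; the called differences of Cldn2 did so except at dpc16. At dpc16, 1 of the 9 genes was called between zones 1 and 3 instead of 2 after quantile normalization (Cldn2 adjusted p = 0.0639) and with only the groups compared (0.13). The Cdh2 difference averaged over the stages was lost at equal FPKM sums (-0.86, adjusted p = 0.086). Between zones 2 and 3, 3 genes were called with array weights instead of 1, and 2 under the replicate block, beside 211 to 623 of all genes over the alternatives. At dpc16 against NP for the mean of the zones, where the count was 0, it was 1 after quantile normalization, 5 with array weights, 4 without the 6 libraries that carry Y-linked FPKM, and 3 at equal FPKM sums, where 10.5%, 22.4%, 16.6% and 25.1% of all genes passed; against dpc8 these counts were 1, 4, 4 and 2, beside 9.71%, 27.2%, 18.7% and 28.1%. Against NP in zone 1 it was 1 with array weights and 1 without the 6 libraries, in zone 2 it was 2, 2 and, at equal sums, 1, and in zone 3 it was 1 at equal sums. Over the alternatives, 59 to 735 of all genes were called in zone 1, 17 to 1136 in zone 2 and 40 to 776 in zone 3. Leaving out 1 library at a time gave 0 to 2 genes against NP, 0 to 1 against dpc8, and 1 to 2 between zones 1 and 3 at dpc16. The shift of the median at equal sums is given above, and the cause of the changed counts was not tested.

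The replicate block moved no other count of the 9 genes by over 1.5 times, but it raised the number of all genes called between zones 1 and 3 to 282 in NP, 459 at dpc8 and 343 at dpc16, from 173, 208 and 201, between zones 1 and 2 to 194 from 119, between zones 2 and 3 to 414 from 244, and at dpc16 against NP in zone 3 to 265 from 171. For the comparisons averaged over stages or zones, counts of all genes were larger with array weights and without the 6 libraries. At dpc16 against NP for the mean of the zones they ran from 1192 to 3249 over the alternatives, against 1529, and in single zones from 17 to 1136, against 171 to 345. At dpc8 against NP they ran from 8 to 72, against 14. With 3 libraries per group and no read counts, differences of about 1 on the log2 scale within a single stage were often beyond the reach of the test: in simulated data 12 of 57 such genes were called between zones 1 and 3 of NP.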
